A study of Mus musculus with 6 samples.

Results

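The 473 peaks described here are ATF3 ChIP-seq peaks that were called in wild-type (WT) bone marrow-derived macrophages both without stimulus and after HDL + CpG. A peak of the HDL + CpG list was taken when it shared at least 1 bp with a peak of the unstimulated list and when the authors' annotation named no repeat at the centre of either peak. They are 12.5% of the 3790 standard HDL + CpG peaks and 25% of the 1892 that lie off repeats. They pair with 470 of the 2779 unstimulated peaks, since 3 unstimulated peaks overlapped 2 members each. The nearest gene was the same in both lists for all 473 peaks, and 413 distinct genes were named. By annotation, 254 were intergenic, 141 intronic and 49 at promoters, while 9 lay at transcription termination sites, 9 in 3' UTRs, 6 in exons, 4 in non-coding transcripts and 1 in a 5' UTR. Coordinates are those of mm9.

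The macrophages were grown from marrow of C57BL/6 mice aged 6 to 8 weeks in medium with 40 ng/ml M-CSF, a culture of 6 days. The unstimulated WT group received nothing further, whereas the other WT group received HDL at 2 mg/ml over 6 h and then CpG at 100 nM over 4 h. Atf3-deficient (KO) macrophages went through both conditions and serve as the background, since they should hold no ATF3 for the antibody to precipitate. The authors also called peaks against the KO library, a procedure they name KOIN. By their methods it drops peaks called in both genotypes and those whose normalized WT tags are less than 2-fold the KO tags. The overlap of a member with such a KOIN-corrected peak is given as its KOIN status. Each group is 1 library into which the authors merged 3 biological replicates, so neither a spread between mice nor a test of a condition could be computed. The libraries hold 37137377 (WT unstimulated), 75534584 (KO unstimulated), 49467421 (WT HDL + CpG) and 47504605 (KO HDL + CpG) reads. No RNA was measured in them, so the loss of Atf3 itself was not checked. Every interval given here is a 95% interval that covers counting error only, and the reads are not counted by molecule. A difference between 2 libraries can therefore stem from the pools as well as from the stimulus, and these cannot be told apart.

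ATF3 belongs to the ATF/CREB family of leucine zipper proteins. Stress and Toll-like receptor ligands induce it, and in macrophages it is known as a brake on inflammatory genes. It pairs with JUN or C/EBP family partners, and the pair decides whether an AP-1 element, a cyclic AMP response element (CRE) or a composite C/EBP-ATF element is read. HDL carries cholesterol away from cells and dampens inflammatory responses, whereas CpG DNA activates macrophages through Toll-like receptor 9. The integrated stress response, in which the ATF3 relatives ATF4 and CHOP act, uses the composite element at genes for amino acid supply and protein synthesis.

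The sequences at the peaks show both kinds of element. Of the 201-bp windows around the centres of the members, 23.5% held the AP-1 element TGAGTCA on either strand, 5.92% the C/EBP-ATF element TGATGCAA and 0.634% the CRE TGACGTCA. In windows of equal length moved by 1000 bp to either side, these shares were 3.70%, 0.740% and 0.106%. Among all 3790 standard HDL + CpG peaks, they were 16.6%, 1.95% and 0.660%, and among the 1419 off-repeat HDL + CpG peaks that were not shared, they were 30.0%, 2.40% and 1.48%. A match of letters describes the window and does not show which protein was bound.

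The C/EBP-ATF elements at 8 promoters are printed first because the KO tags at these peaks are described further on. They were read from the reference assembly NCBIM37, which is mm9, 5' to 3' on the strand given, with the element in capitals.
Ppp1r15b promoter (chr1:135027672-135027701, plus strand): ctaggtccggcTGATGCAActcgccgcgtg
Atf3 promoter (chr1:193007304-193007333, plus strand): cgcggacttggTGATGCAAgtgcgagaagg
Ddit3 promoter (chr10:126727537-126727566, minus strand): gggggcggggaTGATGCAAtgtttggcaac
Mars promoter (chr10:126748694-126748723, plus strand): ggagcccacgcTGATGCAAtcggaaccggc
Iars promoter (chr13:49777495-49777522, minus strand): gtctggaggTGATGCAAtactgacagtg
Card9 promoter (chr2:26215655-26215682, plus strand): tagccagctggTGATGCAAcagcctgtg
Stk40 promoter (chr4:125780521-125780550, plus strand): agtcaccagacTGATGCAAtccctttaaag
Trp53cor1 promoter (chr17:29215961-29215990, plus strand): aagctgggagaTGATGCAAccgaaggcaag

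The next set shows AP-1 elements, again in capitals, at members near genes of cholesterol export, of the ATF family and of oxidative defence, and at Fem1a.
Abca1 intron 5 (chr4:53133428-53133456, plus strand): agaagtagctgTGAGTCAcgagatggtct
Abca1 upstream (chr4:53194560-53194588, minus strand): atcttagaatcTGAGTCAtaaacgatgat
Atf3 upstream (chr1:193054633-193054661, plus strand): agtgaccatccTGAGTCAcccaaactcac
Ddit3 promoter (chr10:126727596-126727624, minus strand): gaggaggtgagTGAGTCAtgcgcgcgcgc
Srxn1 promoter (chr2:151931204-151931232, plus strand): caaattcacccTGAGTCAgcggccgggcg
Fem1a (chr17:56405959-56405987, minus strand): gcaggaggggaTGAGTCActcagcccact

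For 3 members away from annotated exons the whole 201-bp window is given, with each match to 1 of the 3 elements in capitals. The Ifnb1 window is shown for contrast, because none of the 3 elements was found in it.
Ttc39a intron 2 (chr4:109091625-109091825, plus strand): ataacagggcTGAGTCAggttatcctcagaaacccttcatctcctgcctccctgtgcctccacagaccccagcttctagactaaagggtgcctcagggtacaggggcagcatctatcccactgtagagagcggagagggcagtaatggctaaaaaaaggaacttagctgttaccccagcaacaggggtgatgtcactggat
Cd36 intron 1 (chr5:17385768-17385968, plus strand): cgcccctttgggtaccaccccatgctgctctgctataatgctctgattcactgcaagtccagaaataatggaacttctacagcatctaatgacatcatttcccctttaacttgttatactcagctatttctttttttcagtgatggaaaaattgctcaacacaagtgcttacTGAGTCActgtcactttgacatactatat
Ifnb1 upstream (chr4:88183420-88183620, plus strand): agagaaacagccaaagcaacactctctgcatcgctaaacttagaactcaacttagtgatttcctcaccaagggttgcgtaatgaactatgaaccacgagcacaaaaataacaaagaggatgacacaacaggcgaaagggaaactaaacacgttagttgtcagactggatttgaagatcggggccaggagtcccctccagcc

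WT tags per kb at the shared peaks had nearly the same median in both conditions. Tags per kb, the tags the authors scaled to 10000000 reads divided by the width of the peak, had a median of 15.6 in unstimulated WT cells and 15.6 with HDL + CpG. The log2 ratio of HDL + CpG over unstimulated had a median of -0.07, with quartiles of -0.27 and 0.16, and it ran from -1.08 to 1.21. At 424 members the 2 levels were within 1.5-fold of each other. Only 16 members (3.38%) were at least 1.5-fold higher with HDL + CpG, against 2.41% of all 1742 shared peaks with repeats, and 33 (6.98%) were at least 1.5-fold lower, against 11.5%. At 2-fold, 2 members were higher and 3 lower. With KO tags subtracted from WT tags, which leaves 354 members with a WT excess in both conditions, 87 were at least 1.5-fold higher and 107 lower. No interval was computed for these differences, and their share among all shared peaks was not counted. These counts therefore do not show how many members changed with the stimulus. The interval of the WT ratio of tags per kb left out 1 at 88 members, of which 31 were above and 57 below. No share among all shared peaks is given beside this count. Some intervals leave out 1 by counting error alone, and the ratios were not centred on their log2 median of -0.07. The 88 are therefore not a count of members that changed with the stimulus. Both peaks of a pair had to be called in WT cells, which limits how far the WT level can fall in either list.

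**Figure D1:**
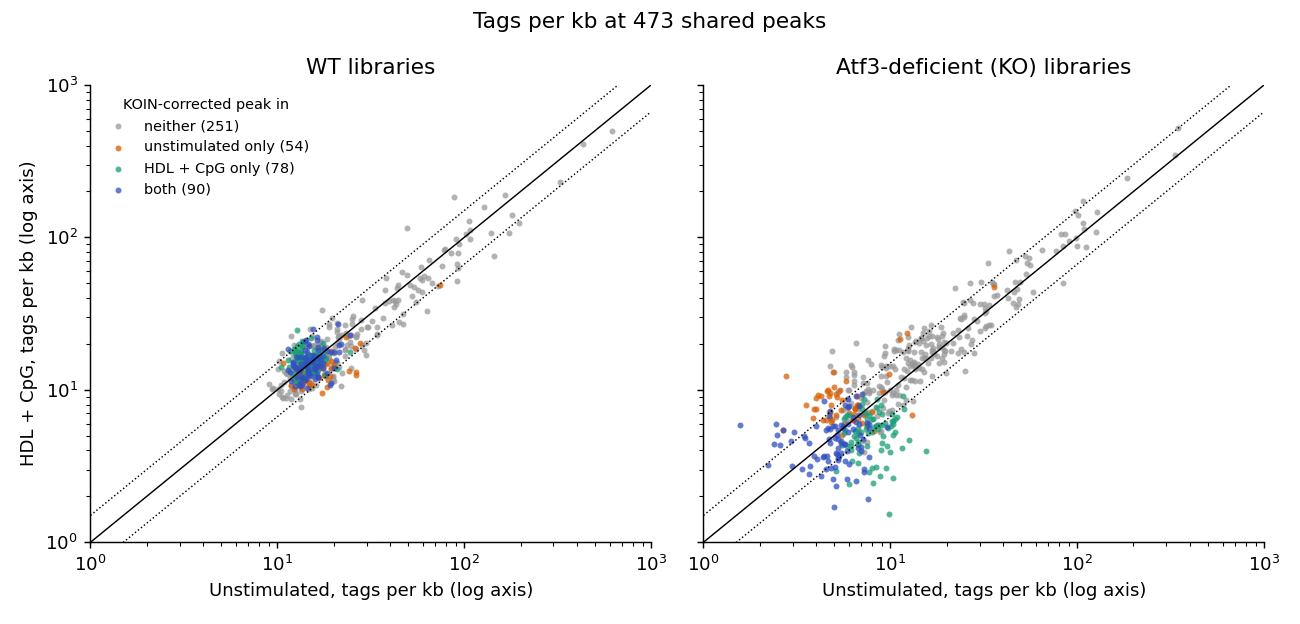
Tags per kb at the 473 members in unstimulated cells (x axis) and with HDL + CpG (y axis), both on log axes, in WT (left) and KO (right) libraries, coloured by whether a KOIN-corrected peak overlaps the member in neither condition (251), the unstimulated one (54), HDL + CpG (78) or both (90). Points in the left plot lie near the solid line of equality, with 424 inside the dotted 1.5-fold lines, whereas 315 do so on the right.

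The KO libraries, whose peaks had not been selected, varied more at the same places. KO tags per kb had medians of 8.70 and 9.08, and the log2 ratio had a median of 0.07 with quartiles of -0.36 and 0.47. KO tags were at least 1.5-fold higher with HDL + CpG at 89 members (18.8%, against 26.0% of all shared peaks) and at least 1.5-fold lower at 69 (14.6%, against 7.46%). The SD of the log2 ratio over members was 0.36 in WT, where counting error alone gives 0.26, and 0.65 in KO, where it gives 0.33. Among the 91 members with at least 100 reads in all 4 libraries the SDs were close, at 0.35 in WT and 0.36 in KO, so the wider KO spread was seen at members with fewer reads. Across the 473 members, which share the same 4 libraries, the Spearman coefficient of the WT and KO log2 ratios was -0.04. At 140 members the KO ratio was past 1.5-fold and the WT ratio was not, a count that was not made over all shared peaks.

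**Figure D2:**
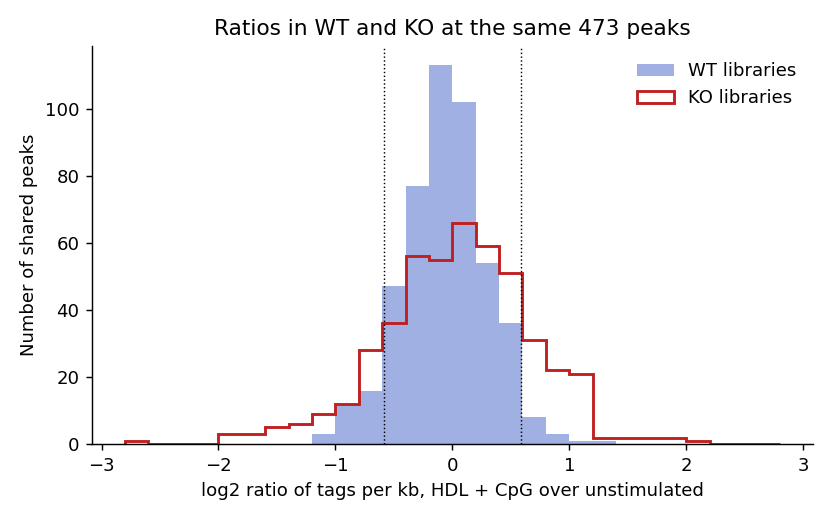
Number of members (y axis) by log2 ratio of tags per kb, HDL + CpG over unstimulated (x axis, bins of 0.2), for WT libraries (filled) and KO libraries (outline), with dotted lines at 1.5-fold. The KO outline is wider, with 158 members past the lines against 49 in WT.

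The width of the peaks bears on these ratios, since each list has its own. Members were 872 bp wide at the median and their partners 832 bp, and the width ratio ran from 0.393 to 2.76. When tags per peak were compared instead of tags per kb, 55 members were at least 1.5-fold higher and 51 lower, and the median log2 WT ratio was -0.019. The share among all shared peaks was not counted per peak. A width cancels where the WT ratio is set against the KO ratio of the same member, because WT and KO tags were counted over the same interval. This relative ratio was at least 1.5 at 73 members (15.4%, against 7.00% of all shared peaks) and at most 1/1.5 at 123 (26.0%, against 39.6%). Of the 73, the WT ratio itself was within 1.5-fold at 65 and the KO ratio was lowered at 46. Of the 123, it was within 1.5-fold at 102, and the KO ratio was raised at 72.

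Of the 16 members with higher WT tags, 7 were intergenic, 6 intronic, 2 at promoters and 1 in a non-coding transcript, and 5 held the AP-1 element. KO tags at these 16 were also at least 1.5-fold higher at 4, lower at 2 and within 1.5-fold at 10. Of the 33 with lower WT tags, 15 were intergenic, 13 intronic, 3 at promoters and 2 in 3' UTRs, and 7 held the AP-1 element. There KO tags were lower too at 4, higher at 8 and within 1.5-fold at 21. KOIN-corrected peaks were absent in both conditions at 9 of the 16 and 22 of the 33, beside 251 of all 473 members.

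Among the 10 members with the highest WT ratio, the KO level was also higher with HDL + CpG at some and lower at others. The peak 940 kb from Nxph1, which encodes a secreted ligand of neurexins, had WT tags per kb of 49.6 unstimulated and 115 with HDL + CpG, and KO tags of 43.2 and 81.5. The WT ratio of 2.31 (1.98 to 2.71) was the highest of all members, beside a KO ratio of 1.89 (1.64 to 2.18). At 1700019M22Rik WT tags were 88.2 and 184 and KO tags 97.1 and 148, so both genotypes again showed the higher level with HDL + CpG. The same held 25.3 kb from Rn4.5s, a small RNA gene, with WT tags of 17.3 and 33.4 and KO tags of 14.9 and 23.4, and near Eea1, whose product tethers early endosomes, with WT tags of 15 and 24.9 and KO tags of 14.6 and 22.0. At the Snord37 promoter WT tags were 11.8 and 22.5 and KO tags 15 and 21, but its 2 peaks differed in width (673 and 1662 bp), and per peak the WT ratio was 0.771.

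Ttc39a and E230029C05Rik stood apart from that group. The Ttc39a member lies in intron 2 of Ttc39a, a gene for a tetratricopeptide repeat protein, 3.47 kb from its start (chr4:109091342-109092109). Its WT tags per kb were 15.4 without stimulus and 25 with HDL + CpG, while KO tags were 7.58 and 1.92. The WT level was higher and the KO level lower with HDL + CpG, with no overlap of the intervals of WT and KO in either condition. The WT ratio was 1.62 (1.1 to 2.44), the KO ratio 0.253 (0.0952 to 0.575), and the relative ratio of 6.41 (2.62 to 15.6) was the highest of all members. The E230029C05Rik member, in exon 3 of a non-coding transcript, had WT tags of 12.8 and 24.8 and KO tags of 8.00 and 3.09. Its WT ratio was 1.94 (1.33 to 2.89) and its relative ratio 5.03 (2.38 to 10.7). The remaining members of the 10 highest lay in an intron of Pde5a with 4930447N08Rik as the nearest gene (WT ratio 1.65, KO ratio 0.930), in intron 5 of Abca1 (1.64 and 0.678) and 179 kb from Galr1 (1.61 and 1.1).

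The 10 members with the lowest WT ratio had no more than 0.567 of their unstimulated level. In intron 4 of 3830403N18Rik on the X chromosome WT tags per kb were 26.3 and 12.5 and KO tags 13.1 and 6.83, so both genotypes were lower with HDL + CpG (WT ratio 0.474, KO ratio 0.521). Near Tcp10c the levels likewise were 91.3 and 51.7 in WT and 84.0 and 50.4 in KO. In intron 1 of Fbxw7, which encodes the substrate receptor of a ubiquitin ligase, WT tags were 22.0 and 10.6 whereas KO tags were 11.1 and 23.1. The WT ratio there was 0.480 (0.317 to 0.717) and the KO ratio 2.08 (1.5 to 2.88), which means that the 2 genotypes changed places. Near Gm20125 (WT 26.3 and 13.1, KO 3.84 and 6.55) and near Wdr67 (WT 24.3 and 13.4, KO 5.09 and 9.35) the WT level was lower with HDL + CpG. The KO ratio was 1.71 near Gm20125, with an interval that holds 1 (0.95 to 3.05), and 1.84 near Wdr67 (1.1 to 3.11), where the WT/KO ratio with HDL + CpG was 1.43 (0.956 to 2.16). Mir190, in an intron of Tln2, and Slc25a33, a mitochondrial nucleotide carrier gene, had WT ratios of 0.516 and 0.518 and KO ratios of 1.21 and 1.22. Per peak their WT ratios were only 0.777 and 0.751. The WT ratio was 0.552 nearest Vcan (in an intron of Xrcc4), 0.563 nearest Chd6 (in an intron of Ptprt) and 0.565 in an intron of Trim30a, with KO ratios of 1.36, 0.855 and 1.1. Per peak the WT ratio was 0.788 near Wdr67, 0.905 near Tcp10c and 0.931 nearest Chd6.

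**Figure D3:**
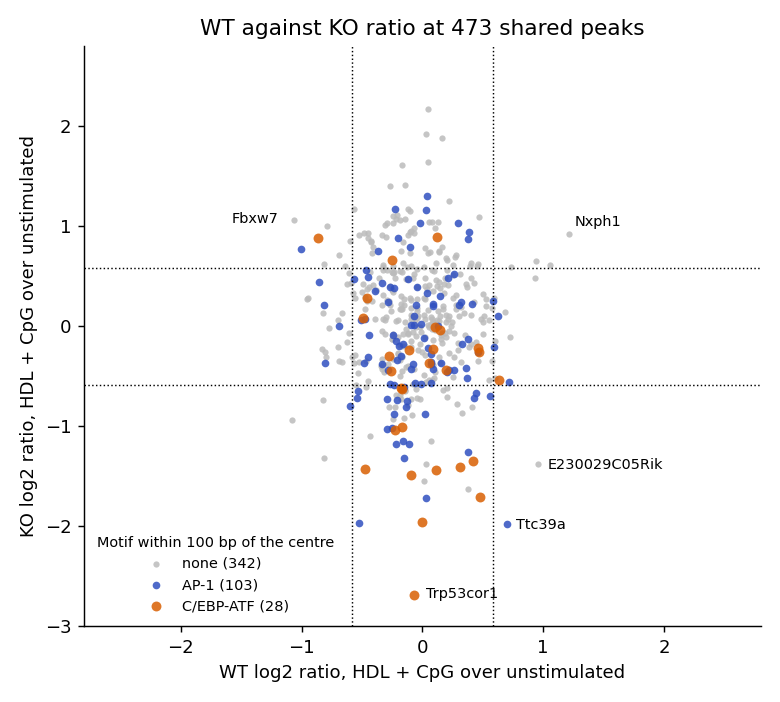
WT log2 ratio (x axis) against KO log2 ratio (y axis) of HDL + CpG over unstimulated at the 473 members, coloured by the element within 100 bp of the centre (members with both elements count as C/EBP-ATF; those with a CRE alone count as none); dotted lines mark 1.5-fold. The points extend further along the KO axis, and of the 28 C/EBP-ATF members 23 have a KO ratio under 1.

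At most members with the highest relative ratio the KO level differed and the WT level did not differ beyond counting error. The promoter of Trp53cor1 (chr17:29215539-29216367), which gives rise to the p53-induced non-coding RNA lincRNA-p21, had WT tags per kb of 14.3 and 13.7, that is, no difference beyond counting error, with a ratio of 0.953 (0.633 to 1.44). Its KO tags were 9.81 and 1.52, a ratio of 0.155 (0.055 to 0.357), the lowest KO ratio of all members. The relative ratio was 6.13 (2.44 to 15.4). The KO level with HDL + CpG rests on 6 reads there, the smallest count of all members in that library. Intervals take no account of the choice of extreme members. Near Fem1a, which encodes a receptor subunit of a ubiquitin ligase, WT tags were 12.4 and 17.3 and KO tags 8.86 and 2.71, with a relative ratio of 4.56 (2.20 to 9.45). The relative ratios were 4.00 nearest Raet1d, a gene for a ligand of the NKG2D receptor, 3.89 in intron 2 of Zfp35, 3.42 in intron 3 of Ambp and 3.35 nearest Coro1c. At these 4 the WT ratio lay between 1.00 and 1.34 and its interval held 1, whereas the KO ratio lay between 0.257 and 0.392 with intervals below 1. The Coro1c member lies in intron 14 of the neighbouring gene Ssh1, whose product is a phosphatase of cofilin.

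The lowest relative ratios showed the reverse. At Fbxw7 it was 0.231 and near Btn2a2, a butyrophilin gene, 0.288, with WT tags per kb of 22.2 and 12.8 and KO tags of 12.9 and 25.8. At both loci WT exceeded KO in unstimulated cells and KO exceeded WT with HDL + CpG. At the member 249 kb from Gm17746 WT tags were nearly equal, 13.5 and 13.9, and KO tags were 2.76 and 12.4, so that the excess of WT over KO went from 4.88-fold to 1.12-fold. The member nearest Trib1, a pseudokinase gene, had WT tags of 15.4 and 15.8 and KO tags of 1.56 and 5.90, and here the WT/KO ratio was 9.88 and 2.67. Over all members the WT/KO ratio had a median of 1.80 unstimulated and 1.54 with HDL + CpG. It was at least 2 in both conditions at 128 members, with HDL + CpG only at 62 and in unstimulated cells only at 66, and it was under 1 in both at 25.

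The KO level was lower with HDL + CpG at many members that held the C/EBP-ATF element, while the WT level was not. This split was made after the values had been seen. The 28 members with the element had a median log2 KO ratio of -0.45, with 12 (42.9%) at least 1.5-fold lower and 3 higher, and a median log2 WT ratio of -0.03, with 1 lower and 1 higher. The 445 members without it had medians of 0.09 in KO and -0.08 in WT, with 57 (12.8%) lower in KO. A lower KO level was not particular to this element. Of the 111 members with the AP-1 element, 8 of which also held C/EBP-ATF, KO tags were at least 1.5-fold lower at 27 and higher at 12. The median KO tags per kb at the 28 were 8.95 unstimulated and 5.33 with HDL + CpG, the WT tags 14.4 and 14.9. Where the C/EBP-ATF element stood without an AP-1 element (20 members) the median KO value was -0.53, and where AP-1 stood alone (103 members) it was -0.21. Members with none of the 3 elements (340) had a median of 0.14 in KO and -0.07 in WT.

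At promoters the element occurred in 9 of 49 members, and the WT ratio was within 1.5-fold at all 9 while the KO ratio was under 1 at all 9 and at least 1.5-fold lower at 5. The Ddit3 promoter (chr10:126727062-126728079), the start of the gene for CHOP, had WT tags per kb of 17.2 and 16.1 and KO tags of 11.6 and 4.14, with a KO ratio of 0.357 (0.206 to 0.591). The promoter of Ppp1r15b, which encodes a subunit of the phosphatase that reverses the integrated stress response, had WT tags of 17.3 and 14.9 and KO tags of 10.4 and 5.07. At Card9, an adaptor of C-type lectin receptors, WT tags were 13 and 16.2 and KO tags 7.70 and 2.90. At the promoters of Mars and Iars, genes for the methionyl- and isoleucyl-tRNA synthetases, the KO ratios were 0.651 (0.360 to 1.12) and 0.851 (0.417 to 1.66), both with intervals that hold 1. Stk40 (0.812), Atf3 (0.733) and Snord116l1 (0.972) also had KO intervals that hold 1, and the relative ratio at Mars, Iars, Stk40, Atf3 and Snord116l1 lay between 1.02 and 1.36. The lower KO level was thus clear of counting error at Trp53cor1, Ddit3, Ppp1r15b and Card9.

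Away from promoters, KO tags per kb were lower with intervals below 1 at B4galt5 (8.41 and 3.11), a gene for a galactosyltransferase, Itih1 (12.6 and 4.66), which encodes a chain of a plasma protease inhibitor, and Clec5a (9.05 and 4.51), a C-type lectin receptor of myeloid cells, besides Zfp35, Fem1a, Ambp and, narrowly, nearest Xlr (23.9 and 18.5). The WT tags at B4galt5 were 13.5 and 14.6, those at Itih1 24.6 and 17.7 and those at Clec5a 14.1 and 12.6, and all 3 WT intervals hold 1. In an intron of Lhfpl2 the WT tags were 13.5 and 21 and the KO tags 8.43 and 5.78, and this was the 1 member with the element and a WT level past 1.5-fold higher. Wdr67 was the 1 past 1.5-fold lower. In an intron of Zfand3 the KO tags were 5.4 and 10.0, so that not all members with the element had the lower KO level. A KOIN-corrected peak was found with HDL + CpG only at 15 of the 28, in both conditions at 5, in unstimulated cells only at 3 and in neither at 5.

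**Figure D4:**
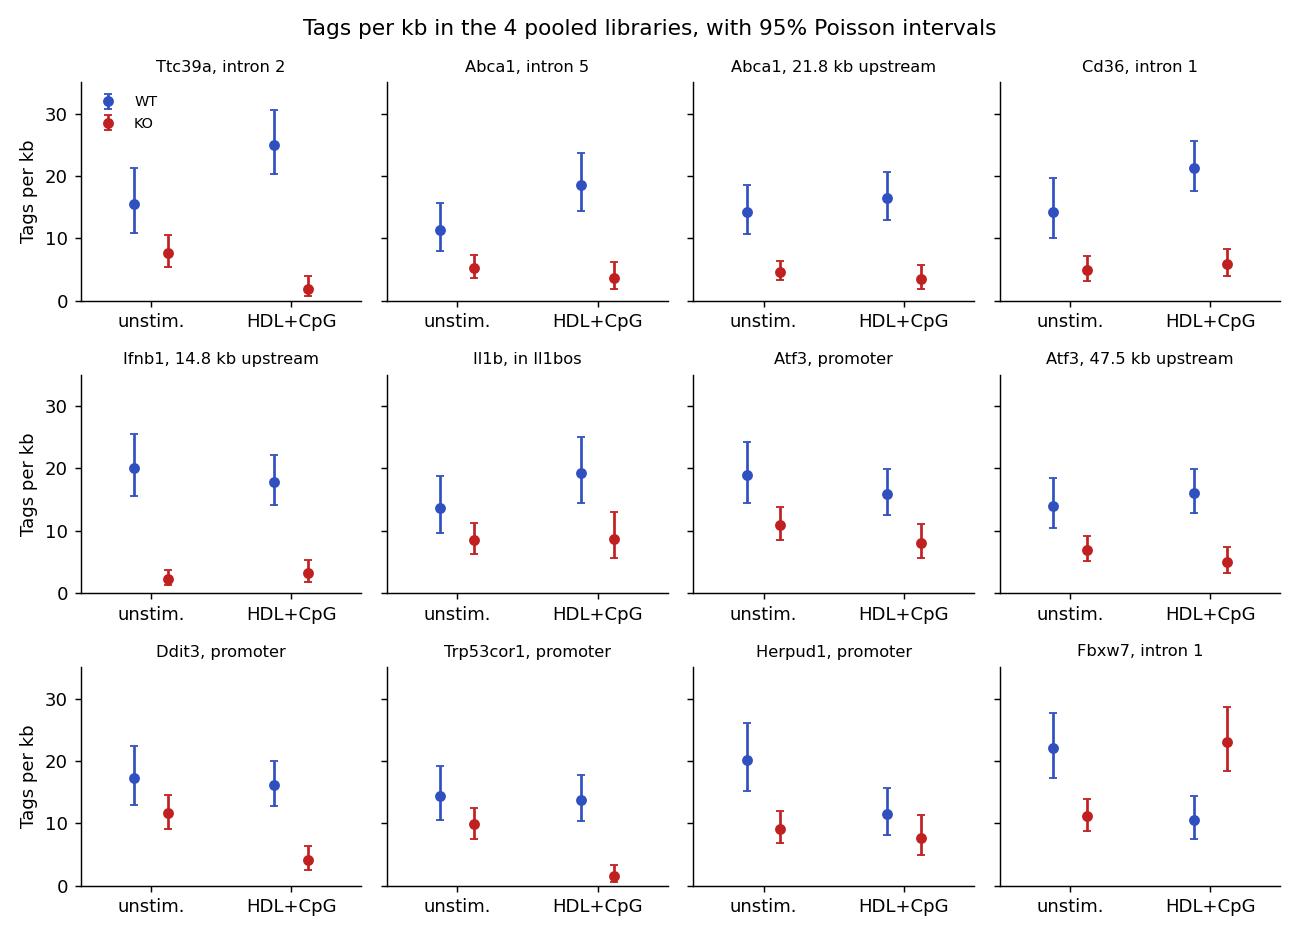
Tags per kb (y axis, linear from 0) in the WT (blue) and KO (red) library without stimulus and with HDL + CpG (x axis) at 12 members, with 95% Poisson intervals of 1 pooled library each. WT lies above KO in both conditions everywhere except at Fbxw7, where KO is the higher one with HDL + CpG (23.1 against 10.6).

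Genes of lipid and cholesterol handling, processes in which HDL acts, had 3 members at 2 of the 32 listed genes. Abca1, which exports cholesterol to HDL particles, had 1 in intron 5 (chr4:53133142-53133848) with WT tags per kb of 11.3 and 18.6 and KO tags of 5.27 and 3.57. That WT ratio, 1.64 (1.08 to 2.53), was past 1.5-fold. A second Abca1 member, 21.8 kb upstream of the start, had WT tags of 14.2 and 16.5 and KO tags of 4.64 and 3.43, with a WT ratio of 1.16 (0.810 to 1.68). Cd36, a scavenger receptor for oxidized lipoproteins, had a member in intron 1 (chr5:17385327-17386409) with WT tags of 14.2 and 21.3 and KO tags of 4.91 and 5.83. Its WT ratio of 1.497 (1.03 to 2.23) lay just below the limit, and per peak, with widths of 1083 and 701 bp, it was 2.31. All 3 were overlapped by a KOIN-corrected peak in both conditions. The relative ratio was 2.42 (1.12 to 5.22) at the intron of Abca1, 1.57 at its upstream member and 1.26 (0.663 to 2.40) at Cd36.

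None of the 6 members at 4 of 32 cytokine genes was past 1.5-fold in WT. The Ifnb1 member, 14.8 kb upstream of the interferon beta gene, had WT tags per kb of 20.1 and 17.8 and KO tags of 2.21 and 3.21, and with a WT/KO ratio of 9.08 and 5.56 it was among those with the largest excess over KO. The member nearest Il1b, in an intron of the antisense transcript Il1bos, had WT tags of 13.6 and 19.2 and KO tags of 8.49 and 8.74, with a WT ratio of 1.42 (0.916 to 2.21). The Ccl2 member 28.4 kb upstream of that chemokine gene had nearly the same tags in both conditions, 15.9 and 15.8 in WT and 6.68 and 6.4 in KO. The 3 ATF, CREB and CHOP members were at Atf3 and Ddit3, and none was past 1.5-fold in WT. The Atf3 promoter had WT tags of 18.9 and 15.9 and KO tags of 11 and 8.04, and the member 47.5 kb upstream had WT tags of 14.0 and 16.1 and KO tags of 6.89 and 5.02. The intervals of both WT ratios, 0.837 and 1.15, hold 1.

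Of the other lists, endoplasmic reticulum and integrated stress had 2 members, Ddit3 and the Herpud1 promoter, and only the latter was lower in WT. Herpud1 encodes a membrane protein of the disposal of misfolded proteins. Its WT tags per kb were 20.1 and 11.5 and its KO tags 9.15 and 7.65, with a WT ratio of 0.571 (0.369 to 0.876) and a relative ratio of 0.683 (0.364 to 1.28). The AP-1 family had 1 member, 53.9 kb from Jun, with WT tags of 10.5 and 9.88 and KO tags of 8.79 and 5.29. Its KO level was thus at least 1.5-fold lower with HDL + CpG, and its WT/KO ratio was 1.20 and 1.87. No KOIN-corrected peak overlapped it in either condition. The MAF, BACH and C/EBP list had 2, near Nfe2l2 (WT tags 16.5 and 19.0), the master regulator of oxidative defence, and Bach2 (12.1 and 15.2). Oxidative stress had Nfe2l2 and the promoter of Srxn1, which reduces oxidized peroxiredoxins (WT 14.8 and 12.6, KO 3.89 and 3.66). Toll-like receptor and NF-kB signalling had 1 member, near Nfkbiz, with WT tags of 19.4 and 18 and KO tags of 7.09 and 6.02. Macrophage identity had 3, the promoter of Cd68 (WT tags 14.6 and 16.3), the 3' UTR of Cx3cr1 (13.4 and 16.4) and a wide region near Fcgr3 (16.0 and 15.1). Of those 3, KO tags were at least 1.5-fold higher at 1, and 1 had no KOIN-corrected peak in either condition. At these members other than Herpud1 the WT ratio ran from 0.846 to 1.25 and every interval holds 1. Per peak the ratio at Fcgr3, with widths of 4095 and 1633 bp, was 2.37.

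Cell cycle and p53 genes had 2 members, in Bcl2 and Ccnd3, with WT ratios of 1.07 and 0.894 and KO ratios of 0.698 and 0.453, and leukocyte phosphatases and adaptors had 1, in Src (1.25 and 0.548). Cdkn1a, which encodes the cell cycle inhibitor p21, had a peak in the unstimulated list only and is therefore no member. The Kruppel-like factors had 2 members, 180 kb from Klf7 (WT tags per kb 17.6 and 20.2, KO tags 6.53 and 4.81) and 73.0 kb from Klf13 (WT 17.7 and 18.6, KO 11.7 and 9.15). The 11 members at 10 solute carrier genes included 1 higher and 2 lower in WT. Interferon regulatory genes had none. Of 2 lists that macrophages do not use, the neuronal genes had 1 member, in Csmd3 (WT 13.3 and 9.77, KO 5.34 and 9.82), and olfactory and vomeronasal receptors had 17 at 5 genes, none past 1.5-fold in WT. At 16 of these 17 no KOIN-corrected peak was found in either condition. The widest, of 6833 bp with Vmn2r121 as the nearest gene, had WT tags of 18.4 and 17.3 and KO tags of 18.2 and 19.1. Members belong to the list by their nearest gene only. Those nearest Vmn2r121 are intergenic, and the one with the C/EBP-ATF element lies 497 kb from its start. Whether reads can be placed with certainty at these members was not tested.

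When the members were divided into 4 groups by summed WT tags per kb, the 118 with the highest levels differed least between WT and KO. Their median WT/KO ratio was 1.30 unstimulated and 1.07 with HDL + CpG, and 105 had no KOIN-corrected peak in either condition. The level nearest Chst2, a sulfotransferase gene, was the highest of all, with WT tags of 621 and 496 and KO tags of 347 and 522. At Nkx2-6 the WT tags were 325 and 231 and the KO tags 184 and 246, so at both loci WT exceeded KO in unstimulated cells only. The windows of both hold runs of the telomere-type unit CCCTAA, although the annotation named no repeat at their centres. Repeated units or runs of the same base also stand in other windows, among them those nearest Chd6, Csmd3, 4930447N08Rik, Trim30a, Mir190, Btn2a2 and Bard1. Reads in such stretches cannot be placed with certainty, so these levels may not belong to the named place alone. The ribosomal RNA gene Rn45s, present in many copies, had WT tags of 430 and 411 and KO tags of 332 and 346, and Bard1 had 164 and 189 in WT and 108 and 173 in KO. At Bard1 the WT ratio was 1.15 per kb and 0.872 per peak. The median log2 ratio was -0.15 in WT and 0.20 in KO at the 118 members with the highest levels, -0.12 and 0.17 at the 119 with the lowest, and in the 2 middle groups 0.019 and 0.00064 in WT and -0.16 and 0.039 in KO.

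KOIN-corrected peaks overlapped 90 members in both conditions, 78 with HDL + CpG only, 54 in unstimulated cells only and 251 in neither. The status is set by the same WT and KO tags, so the tags of the 4 classes are a description. The WT tags of the 78 had medians of 13.9 unstimulated and 15.9 with HDL + CpG and their KO tags 8.01 and 5.36. At the 54 the WT medians were 14.9 and 13.6 and the KO medians 5.49 and 7.58. In log2 the medians of the KO ratio were -0.57 and 0.46, and those of the WT ratio 0.13 and -0.26. The sequences did not enter the status, but the KO tags did, so the shares below are not independent of the KO ratios described above. The AP-1 element was found in 51.1% of the 90, in 39.7% of the 78 and in 42.6% of the 54, but in 4.38% of the 251, which is close to the 3.70% of the shifted windows. The C/EBP-ATF element was found in 5.56%, 19.2%, 5.56% and 1.99% of the 4 classes.

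**Figure D5:**
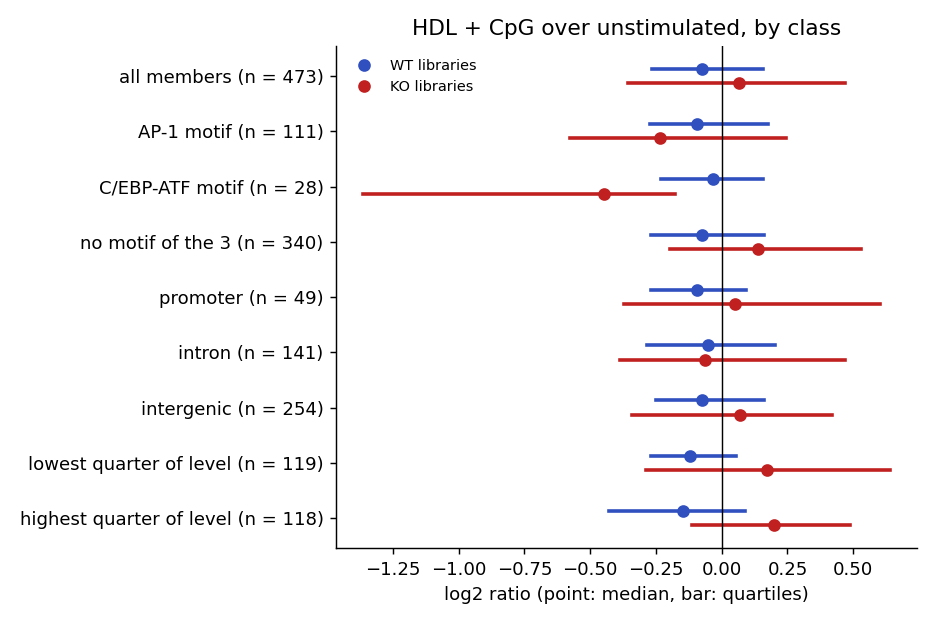
Median (point) and quartiles (bar) of the log2 ratio of tags per kb, HDL + CpG over unstimulated (x axis), in WT and KO libraries for classes of members (y axis, with the number of members; a member can be in several classes). The WT medians lie between -0.15 and -0.03, while the KO medians run from -0.45 at C/EBP-ATF members to 0.20 at the 118 members with the highest level.

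The WT ratio differed little between promoters, introns and intergenic places. Its median log2 value was -0.09 at promoters, -0.05 in introns and -0.08 between genes, with WT/KO ratios of 1.87 and 1.59, 2.03 and 2.10, and 1.71 and 1.31 in unstimulated and stimulated cells. The 9 members in 3' UTRs had a median log2 WT ratio of -0.23 and the 9 at transcription termination sites 0.07. By distance it was -0.01 at 10 to 100 kb from a start site and -0.13 beyond 100 kb. Members beyond 100 kb from a start site (116) had the lowest excess over KO, with medians of 1.40 and 1.09, and 87 of them had no KOIN-corrected peak. GC content in the 201-bp window had a median of 47.3% and ran from 23.4% to 76.1%, and its Spearman coefficient with the log2 ratio was -0.04 in WT and -0.11 in KO over the 473 members.

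A further WT library, from cells that received HDL alone (2 mg/ml over 6 h, 37930363 reads), had a peak at 396 of the members. It has its own KO library of 66061648 reads. Since the comparisons share libraries, only the levels are given. The medians over the 396 were 16.0 tags per kb unstimulated, 18.7 with HDL and 16.1 with HDL + CpG in WT, and 9.11, 8.82 and 9.49 in KO. HDL alone was the highest of the 3 WT levels at 215 members, between the others at 110 and the lowest at 71. Members without a called HDL peak are left out of these values, which limits how low the HDL level can be. At Ttc39a the WT levels were 15.4, 25.5 and 25 and the KO levels 7.58, 4.04 and 1.92, so that HDL alone already showed the higher WT level. At Cd36 the WT levels were 14.2, 19.3 and 21.3, and nearest Vcan, a proteoglycan gene, they were 17.3, 28.6 and 9.56. Near Slc25a33 the WT levels were 145, 143 and 75.2 and the KO levels 86.1, 34.3 and 105.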

How the data were processed

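ATF3 ChIP-seq peaks of WT and KO bone marrow-derived macrophages were compared between HDL + CpG and no stimulus. The authors concatenated the replicates, aligned the reads to mm9, keeping the best position of multi-mappable reads, used MACS for peak calling and HOMER for annotation. MACS 1.4.2 and HOMER 4.3, with CASAVA 1.8 and Bowtie 0.12.8 before them, stand in the submitters' processing notes, while the methods give another MACS release. The signal deposited per peak is the number of tags in WT and KO, scaled by the authors to 10000000 reads. The deposited score is the one MACS gave each peak, and it served only as an alternative filter.

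The members follow the overlap rule, with the partner of largest overlap, and 154 shared peaks that lie on a repeat in the unstimulated list only were left out. Reads were recovered from the tags and the library totals in the headers, and all tags lay within 0.005 of whole reads. Ratios of tags per kb have exact conditional binomial intervals, levels Poisson intervals and ratios of 2 ratios log-normal ones. With 1 library per group no test was run. A member was called at 1.5-fold. The intervals were checked on simulated reads that held counting error only, so this does not cover other variation. Motif letters, on both strands within 100 bp of centres, and sequences were read from NCBIM37. All 3790 peaks lie inside its chromosomes, and 43 of 47 promoter members had an annotated start site within 100 bp of the one the annotation implies. The RefSeq accession of an intron was matched to a symbol to name its host gene.

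Named members, all 473 having at least 20 WT reads in both libraries, are the 10 highest and 10 lowest WT ratios, the 8 highest and 5 lowest relative ratios, the 5 highest levels with HDL + CpG, up to 3 per gene list, and those at Cd36, Ifnb1, Atf3, Cdkn1a and Ttc39a. One item that the rule names is not reported here. Promoters with the C/EBP-ATF element were named after their values had been seen. The members, the 16 lists and the rule were chosen with earlier results of these data known. Alternatives were a 2-fold limit, intervals that leave out 1, tags per peak, median centring, stricter overlaps, score minimums of 60 and 100, autosomes, inclusion of repeats, a pseudocount of 1 tag (0 in the main values), subtraction of KO tags, single partners and KOIN-corrected members. The list of raw reads was not used for measurements. It names 4 raw files for each unstimulated library and 3 for each HDL + CpG library. Versions were scipy 1.17.1, pandas 2.3.3, numpy 2.4.6, matplotlib 3.10.9 and Python 3.11.15.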

Additional observations from a re-analysis of the deposited data

Results flagged for a closer look

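At 8 of the 473 members the WT and KO ratios of HDL + CpG over unstimulated were past 1.5-fold in opposite directions with intervals that leave out 1. The difference between the genotypes was not tested, since each is 1 pooled library per condition. WT was higher and KO lower at Ttc39a (relative ratio 6.41) and E230029C05Rik (5.03). WT was lower and KO higher near Btn2a2 (0.288), Wdr67 (0.300), Opa1 (0.366) and Zfp746 (0.380). The same held in an intron of Fbxw7 (0.231) and at the member nearest Plod3 (0.422), in an intron of Znhit1. Without the 1.5-fold limit, the intervals left out 1 in opposite directions at 27 members, 4 with WT above 1 and 23 with WT below 1. No KOIN-corrected peak was found in either condition at 22 of the 27, beside 251 of all 473 members. These counts were not made over all shared peaks. Of those, 39.6% had a relative ratio of at most 1/1.5 and 7.00% of at least 1.5, against 26.0% and 15.4% of members.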

How the results depend on the processing

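No paired analysis was possible because each group is 1 pooled library. Depth limits the calls: members have a median of 49 and 68 WT reads and 52 and 36 KO reads, unstimulated and with HDL + CpG, and the median counting error of a log2 ratio was 0.27 in WT and 0.33 in KO. The order given below is WT higher, WT lower, relative ratio at least 1.5 and at most 1/1.5, whose main counts were 16, 33, 73 and 123. At 2-fold they were 2, 3, 28 and 57. With a score of at least 60 they were 8, 12, 20 and 47 of 192 members, and at 100 they were 3, 4, 3 and 21 of 80. With repeats they were 42, 200, 122 and 689 of 1742, and at the 90 members with KOIN-corrected peaks in both conditions 2, 2, 19 and 12. Tags per peak gave 55 and 51 for WT, and KO tags subtracted gave 87 and 107 of 354. With intervals that leave out 1, the relative ratio was at least 1.5 at 32, and with median centring at 111. The log2 WT median of -0.07 was -0.019 per peak, -0.14 with repeats and -0.033 with KO tags subtracted. The log2 KO median of 0.07 was 0.16 per peak, 0.15 at a score of 100, 0.25 with repeats and -0.18 at the 90 members. Per peak, Snord37 (-0.37) turned in direction, as did Bard1 (0.20 to -0.20), whose main interval leaves out 0, while Rn45s (-0.063) was at 0.011 with median centring. The other 40 of 73 values stayed within 1.5 times the main count or inside the 95% interval of the main median, as did 166 of 180 values of named members inside their own intervals.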
